A study of Mus musculus with 27 samples.

Results

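The cortex on the side opposite a transient stroke was compared between 24 h and 3 h of recovery. Small RNA libraries came from wild-type C57BL6 mice, an inbred laboratory strain, aged 7 to 8 weeks. A suture had closed the right middle cerebral artery for 35 min (middle cerebral artery occlusion, MCAO). The 2 groups are contralateral cortex at 24 h (contra_24h, 3 libraries) and at 3 h (contra_3h, 3 libraries), so 6 of the 27 libraries of the series. The labels put the libraries in these groups, and no measured value was used to do so. The other 21 libraries are ipsilateral cortex at 3, 6, 12 and 24 h, contralateral cortex at 6 and 12 h, and cortex of sham mice, which were anesthetized and had their arteries exposed without a filament; each of these groups has 3 libraries. Replicates 1, 2 and 3 of every group stand for different days of surgery, so contra_24h and contra_3h libraries of one number share a day. Both groups carry the anesthesia, the surgery and the stroke of the other hemisphere. No miRNA passed the edgeR test of contra_24h against contra_3h among the 1470 entries tested of 1842 in the table.

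MicroRNAs are short RNAs that guide Argonaute proteins to messenger RNAs, mostly by pairing of the seed near their 5′ end, and lower the stability and translation of those messages. The cortex opposite a stroke keeps its own blood supply, but it loses input through the corpus callosum and shares systemic inflammation, stress and surgery with the injured side. It often serves as an internal control for the injured side, which makes its own drift with recovery time a measurement of interest.

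The sequences below are those of the miRNAs that the values turn on, with the seed, bases 2 to 8 from the 5′ end, in capitals. They are RefSeq entries on GRCm38.p6. No source used here names the build of the deposited table. The first pair, induced in many cell types by NF-kappaB signalling, had the smallest p-values among inflammation-responsive miRNAs.
miR-146b-5p: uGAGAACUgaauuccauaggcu
miR-146a-5p: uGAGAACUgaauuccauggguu
They share the whole seed and differ by G18A and U21C, with the base of miR-146a-5p first and positions counted from its 5′ end. The gene of miR-146b-5p lies in an intron of Mfsd13a (chr19:46342790-46342811, plus strand), and that of miR-146a-5p in no other annotated gene (chr11:43374435-43374456, minus strand).
miR-384-5p carries the seed of the miR-30 family, and is shown with a pair of members of that family.
miR-384-5p: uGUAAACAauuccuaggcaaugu
miR-30a-5p: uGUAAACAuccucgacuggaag
miR-30e-5p: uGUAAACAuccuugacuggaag
miR-384-5p lies on the X chromosome outside other genes (chrX:105344332-105344354, minus strand). miR-30e-5p differs from miR-30a-5p by C13U.
The next pair marks the choroid plexus, the tissue that makes cerebrospinal fluid.
miR-204-5p: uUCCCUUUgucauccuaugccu
miR-211-5p: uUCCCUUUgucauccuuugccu
They differ by A17U, counted as above with the base of miR-204-5p first. miR-204-5p sits in an intron of Trpm3 (chr19:22750610-22750631, plus strand) and miR-211-5p in an intron of Trpm1 (chr7:64205831-64205852, plus strand).
The last set holds a miRNA of the Hoxd cluster whose replicates spread widely, an intronic miRNA with tight replicates, and the miRNA that differed most between the hemispheres.
miR-10b-5p: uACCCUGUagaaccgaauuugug
miR-744-5p: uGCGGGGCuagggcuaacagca
miR-701-5p: uUAGCCGCugaaauagaugga
miR-10b-5p lies within introns annotated to Hoxd3 and Hoxd4 (chr2:74726074-74726096, plus strand), miR-744-5p in an intron of Map2k4 (chr11:65734799-65734820, minus strand) and miR-701-5p in an intron of Ttc28 (chr5:111004170-111004190, plus strand).

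Total counts were 1144733, 1435081 and 866376 in contra_24h replicates 1 to 3, against 1903416, 1695534 and 1063831 in contra_3h. Within each day of surgery the contra_24h library was thus the shallower one. Levels are in CPM, the count relative to the library total after multiplying that total by a TMM factor, which was between 0.829 and 0.990 in contra_24h and between 0.914 and 1.29 in contra_3h. Between 1813 and 1817 entries had a count in contra_24h libraries, and between 1825 and 1842 in contra_3h libraries. The neuron-enriched list, 13 of 13 members tested, summed to 109845, 167431 and 116955 CPM in contra_24h and to 91390, 157381 and 138379 CPM in contra_3h. miR-182-5p, a miRNA of sensory cells, was at 22414 CPM in sham replicate 2 and between 73.5 and 190 CPM in the 6 libraries compared; that sham library stands apart for this cluster and enters the shared estimate of spread.

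The largest differences among the 6 libraries followed the day of surgery. Principal components of log2 CPM separated replicate 1 from replicates 2 and 3 along component 1, which held 37.5% of the variance, with positions of -9.50, 7.80 and 4.61 in contra_24h against -12.0, 4.44 and 4.67 in contra_3h. Component 2, with 28.2%, separated replicate 2 from replicate 3. Neither of these components placed the contra_24h libraries on one side and the contra_3h libraries on the other.

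**Figure D1:**
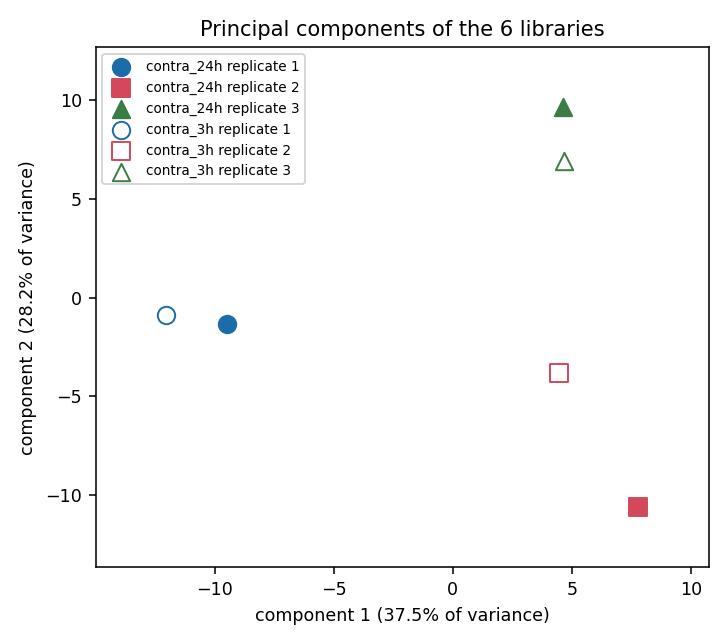
Positions of the 6 libraries on the first 2 principal components of log2 CPM (unitless axes, share of variance in the axis labels); filled symbols are contra_24h, open symbols contra_3h, and colour and shape give the replicate number. Libraries of one number lie near each other, with replicate 1 at -9.50 and -12.0 on component 1.

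With a mean per group, the replicate number as a block and all 27 libraries in the fit, edgeR's quasi-likelihood test called 0 of 1470 entries between contra_24h and contra_3h (0%), and the smallest adjusted p was 0.9999. An unadjusted p under 0.05 was reached by 20 entries with a higher level in contra_24h (1.36%) and by 30 with a lower one (2.04%), together 3.4%. DESeq2 called 0 entries and gave an unadjusted p under 0.05 for 35. The 3 contra_24h values lay all above the 3 contra_3h values for 55 entries (3.74%) and all below them for 70 (4.76%), which is 8.5% of the entries tested. Within all 3 same-day pairs the contra_24h library was the higher one for 216 entries (14.7%) and the lower one for 226 (15.4%).

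The absence of calls was bounded by the intervals of the differences, which narrowed with the level of the miRNA. The 95% interval of the contra_24h over contra_3h ratio lay within 2-fold in both directions for 690 of 1470 entries (46.9%). That share was 89.7% of the 78 entries with a mean of at least 1000 CPM over the 6 libraries, 83.9% of the 180 between 100 and 1000 CPM, 53.6% of the 717 between 10 and 100 CPM, and 17.2% of the 495 under 10 CPM. For 1387 entries the interval lay within 4-fold. A fitted difference beyond 2-fold was seen for 30 entries. For miRNAs under 10 CPM a 2-fold difference was therefore not excluded in most cases. For 221 of the 258 entries with at least 100 CPM (85.7%) the interval left no room for one with TMM scaling. The intervals do not include uncertainty in the scaling. The median log2 difference of these entries was 0.19 with TMM, 0.26 with DESeq2 size factors and -0.05 with library totals. Fitting the 12 contralateral libraries alone, where the common dispersion was 0.0342 against 0.0817 with all 27, put 239 of those 258 entries (92.6%) within 2-fold. Of the 975 entries with at least 10 CPM, that fit put 720 (73.8%) within 2-fold, against 605 (62.1%) with all 27 libraries.

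Abundant and scarce miRNAs had medians on different sides of 0 with TMM scaling. The median log2 difference, contra_24h minus contra_3h, was 0.21 for entries with at least 1000 CPM, 0.15 between 100 and 1000 CPM, -0.08 between 10 and 100 CPM and -0.20 under 10 CPM, against -0.05 over all entries. Among the 258 entries with at least 100 CPM, 209 had a fitted value above 0 and 49 below. The 3 same-day pairs differed in size: for at least 100 CPM the median difference of the pair was 0.35 for replicate 1, 0.15 for replicate 2 and 0.07 for replicate 3, and for entries under 10 CPM it was -0.27, -0.21 and 0.00. The signs themselves depended on the scaling. With library totals alone the median over all entries moved by -0.23, to -0.28, and that of entries with at least 100 CPM was -0.05; 282 entries then lay above 0 and 1188 below, against 658 and 812 with TMM. The gap between the medians of at least 100 CPM and under 10 CPM was 0.38 with TMM and 0.39 with library totals. It was 0.22 without contra_24h replicate 1 and 0.53 without contra_24h replicate 3. The depth of the libraries moved with the same contrast, and its part in the gap was not tested.

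**Figure D2:**
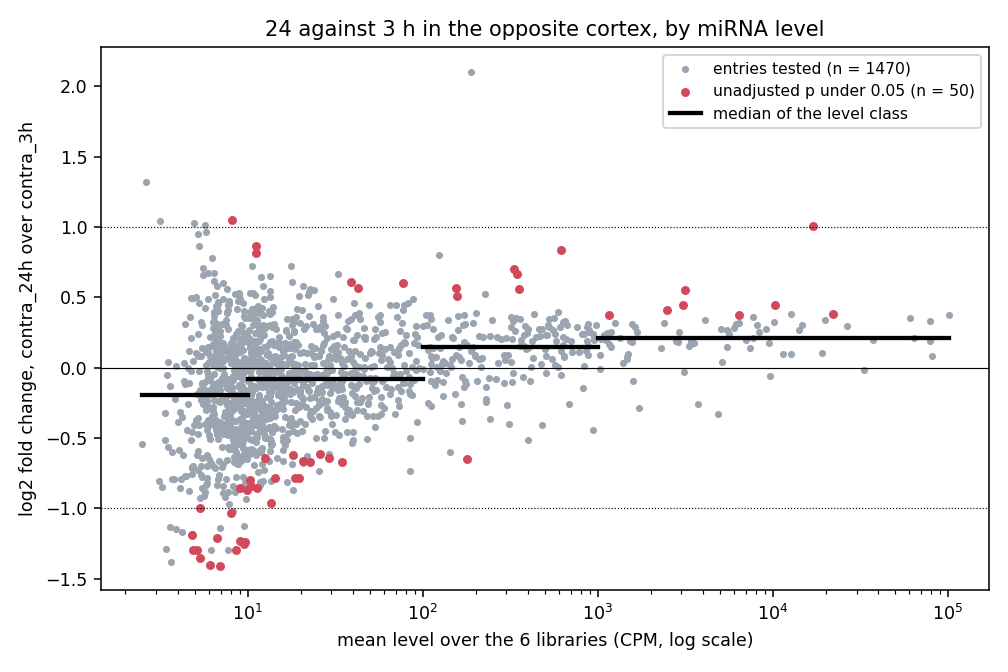
Log2 fold change of contra_24h over contra_3h (y axis) against the mean level over the 6 libraries in CPM (x axis, log scale) for the 1470 entries tested; red points had an unadjusted p under 0.05, none passed adjustment, black bars are medians of the 4 level classes and dotted lines mark 2-fold. With TMM scaling the medians run between -0.20 under 10 CPM and 0.21 at 1000 CPM or more; library totals alone shift the median of all entries by -0.23.

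The miRNAs with the smallest p among those higher in contra_24h on all 3 days were led by miR-146b-5p, which with miR-146a-5p targets the adaptors Irak1 and Traf6 and so restrains innate immune signalling. miR-146b-5p was at 767, 593 and 985 CPM in contra_24h replicates 1 to 3, against 394, 343 and 594 CPM in contra_3h. Each contra_24h library was above its same-day partner, but the groups overlapped marginally, since contra_3h replicate 3 slightly exceeded contra_24h replicate 2. The log2 difference was 0.84 ± 0.25 (SE, interval 0.33 to 1.35, edgeR p 0.00236, adjusted p 0.9999). In time order the levels were 370, 540 and 521 CPM in sham cortex, 394, 343 and 594 at 3 h, 582, 726 and 812 at 6 h, 538, 1015 and 1424 at 12 h, and 767, 593 and 985 at 24 h. The highest single values were therefore at 12 h, where the log2 difference to 3 h was 1.10 and missed the threshold (edgeR adjusted p 0.122). miR-146a-5p was at 361, 306 and 527 CPM in contra_24h and at 157, 202 and 430 CPM in contra_3h. Its groups overlapped more, with contra_3h replicate 3 above 2 of the contra_24h libraries, and its log2 difference was 0.70 ± 0.30 (SE, edgeR p 0.0296, adjusted p 0.9999), or 0.44 without contra_24h replicate 1. As the pair differs at 2 bases near the 3′ end, reads may be shared between them to an extent that no source used here states.

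Of the 7 inflammation-responsive miRNAs tested, 6 had a value above 0 with a median of 0.14, which turned to -0.10 with library totals and to -0.02 with TMM factors from abundant entries, and none was called. miR-21a-5p, which rises in many injured tissues, was at 2041, 1708 and 1433 CPM in contra_24h and at 1367, 1606 and 1219 CPM in contra_3h (log2 difference 0.31 ± 0.21, SE). miR-155-5p, an activator of myeloid cells, was scarce, with 11.3, 8.42 and 5.84 CPM in contra_24h and 9.01, 11 and 9.08 CPM in contra_3h. Markers of leukocytes and microglia summed to 1441, 2073 and 1770 CPM in contra_24h and to 1124, 2206 and 1608 CPM in contra_3h, so the groups overlapped. Within that list the myeloid miR-223-3p was at 16, 11.8 and 12.8 CPM in contra_24h, against 12.3, 15.5 and 9.98 CPM in contra_3h. In bulk tissue fewer cells of a type and less RNA per cell cannot be told apart.

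miR-384-5p, a brain-enriched miRNA with the seed of the miR-30 family, was at 407, 375 and 482 CPM in contra_24h and at 247, 299 and 317 CPM in contra_3h. All contra_24h values exceeded all contra_3h values, and the log2 difference was 0.56 ± 0.20 (SE, interval 0.16 to 0.96, edgeR p 0.00837, adjusted p 0.9999). Sham cortex, at 267, 369 and 416 CPM, spanned much of both ranges. The miR-30 members with which it shares the seed gave smaller values: miR-30a-5p 0.30 ± 0.17 and miR-30e-5p 0.17 ± 0.19 (log2 difference, SE). Across the 5 tested miR-30 members 4 lay above 0, with a median of 0.17 that became -0.07 with library totals.

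miR-143-3p, a miRNA of smooth muscle and pericytes in vessel walls, was at 37677, 13393 and 16683 CPM in contra_24h, against 10909, 12579 and 10845 CPM in contra_3h. The groups did not overlap, but contra_24h replicate 1 stood far above the rest of its group. The log2 difference was 1.00 ± 0.39 (SE, edgeR p 0.0192, adjusted p 0.9999), and without contra_24h replicate 1 it was 0.32. Sham cortex was at 28891, 16654 and 14144 CPM, so a sham library of the same day was also high. The 4 tested vascular miRNAs were all above 0 (median 0.45), and their summed level was 39622, 15423 and 18430 CPM in contra_24h and 11994, 14807 and 12423 CPM in contra_3h. Without contra_24h replicate 1 that median was 0.031. The endothelial miR-126a-3p, with 1733, 1874 and 1614 CPM in contra_24h and 972, 2056 and 1477 CPM in contra_3h, overlapped between the groups.

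miR-10b-5p, which is expressed mainly outside the forebrain, had the largest fitted difference of all entries tested, at 2.10 ± 1.04 on the log2 scale (SE, interval -0.11 to 4.31, edgeR p 0.0606, adjusted p 0.9999). Its levels were 557, 39.6 and 319 CPM in contra_24h and 103, 34.9 and 78.0 CPM in contra_3h. Contra_24h replicates 1 and 3 were high and replicate 2 was at the level of contra_3h. Sham replicate 1 was higher than any of these, at 818 CPM, against 120 and 127 CPM in the other sham libraries. The list of meningeal and fibroblast miRNAs, to which miR-10b-5p belongs, summed to 811, 290 and 513 CPM in contra_24h and to 339, 284 and 268 CPM in contra_3h, while its other 5 tested members had log2 differences between -0.37 and 0.30. miR-10b-5p was thus detected in all sham, contra_24h and contra_3h libraries. The part of this list in the other differences was not tested.

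miR-204-5p of the choroid plexus was at 5302, 3279 and 2808 CPM in contra_24h and at 2679, 2480 and 2292 CPM in contra_3h. The groups did not overlap, and the log2 difference was 0.56 ± 0.22 (SE, edgeR p 0.0195, adjusted p 0.9999). At 6 h replicate 1 reached 7276 CPM, against 3098 and 2685 CPM in the other contra_6h libraries. Its seed partner miR-211-5p gave a log2 difference of 0.10 ± 0.40 (SE), with 25.5, 23.6 and 22.2 CPM in contra_24h and 25.8, 20.04 and 20.9 CPM in contra_3h. Choroid plexus miRNAs as a list summed to 5343, 3321 and 2846 CPM in contra_24h, against 2721, 2511 and 2323 CPM in contra_3h, so the vascular, the meningeal and the choroid plexus sums were all highest in contra_24h replicate 1. The part of these cell types in the differences of other miRNAs was not tested. miR-34c-5p, a p53 target also expressed in ciliated cells, had a log2 difference of 0.66 ± 0.31 (SE, edgeR p 0.045, adjusted p 0.9999). The miR-34 list was split, with 4 of 6 tested members above 0 and 2 below. Those below were miR-34b-5p at -0.50 ± 0.31, without overlap, and miR-34c-3p at -0.47 ± 0.34 (log2 difference, SE).

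miR-744-5p, an intronic miRNA, varied little within each group, with 3548, 3449 and 3530 CPM in contra_24h and 2492, 2610 and 2630 CPM in contra_3h. No values overlapped, and the log2 difference was 0.45 ± 0.19 (SE, interval 0.05 to 0.84, edgeR p 0.0304, adjusted p 0.9999). It was 0.23 with library totals alone. Sham cortex was at 3291, 2886 and 2480 CPM, below all contra_24h values and on both sides of the contra_3h values. The widely expressed miR-191-5p was at 8047, 15206 and 11571 CPM in contra_24h and at 4369, 11763 and 10645 CPM in contra_3h. Its difference of 0.45 ± 0.19 (log2, SE, edgeR p 0.0252) followed the pairs, while the groups overlapped, with replicate 1 low at both times. The remaining miRNAs of this kind were scarcer: miR-7041-3p, miR-488-5p and miR-3061-3p had mean levels between 11.2 and 76.8 CPM and log2 differences of 0.81, 0.60 and 0.61.

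**Figure D3:**
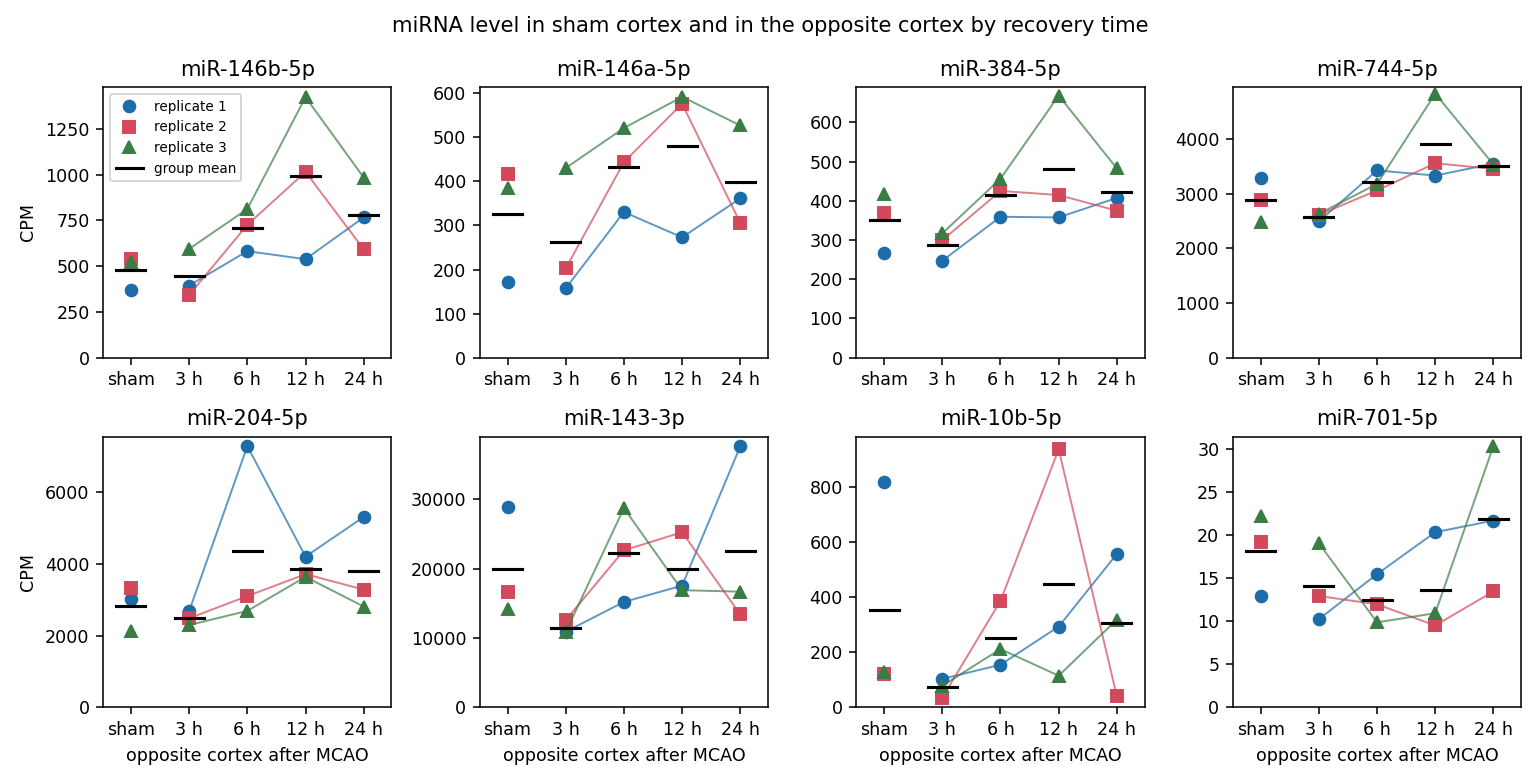
Levels in CPM (linear y axes from 0) of 8 miRNAs in sham cortex and in the opposite cortex at 3, 6, 12 and 24 h after MCAO; symbols are single libraries, lines join libraries of one replicate number and black bars are group means (n = 3). miR-744-5p lies between 3449 and 3548 CPM at 24 h and between 2492 and 2630 CPM at 3 h, whereas miR-10b-5p spreads between 39.6 and 557 CPM at 24 h.

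The 10 named miRNAs lower in contra_24h on all 3 days had mean levels between 10.4 and 179 CPM, against a median of 13.5 CPM over all tested entries. The most abundant was miR-700-3p, at 202, 148 and 58.4 CPM in contra_24h and at 366, 211 and 88.0 CPM in contra_3h. Each contra_24h library was below its same-day partner, replicate 3 was low at both times, and the log2 difference was -0.65 ± 0.27 (SE, edgeR p 0.0242, adjusted p 0.9999). miR-6969-3p was at 7.54, 7.58 and 7.01 CPM in contra_24h and at 13.1, 13.6 and 13.6 CPM in contra_3h, with no overlap and a log2 difference of -0.84 ± 0.32 (SE, edgeR p 0.0138, adjusted p 0.9999). It was also the entry nearest to a call at 12 h, where it was at 3.21, 5.70 and 1.37 CPM (log2 difference to 3 h -1.84, edgeR adjusted p 0.0766). Sham cortex, at 8.92, 6.12 and 8.08 CPM, was near the 24 h level. The other 8 were miR-693-3p, miR-6957-5p, miR-3472, miR-8103, miR-7688-5p, miR-7231-3p, miR-374b-5p and miR-1957b, with log2 differences between -0.96 and -0.62. miR-758-5p of the Dlk1-Dio3 region had the smallest p of all (0.00165) and is named after its values were seen, since its mean of 6.06 CPM is under the 10 CPM asked for. Its levels were 3.77, 1.68 and 4.67 CPM in contra_24h and 9.42, 7.76 and 9.08 CPM in contra_3h, which rest on 4, 2 and 4 counts against 23, 12 and 10.

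Mature sequences of the entries with an unadjusted p under 0.05 were set beside their levels. The 16 of 20 higher entries with a RefSeq sequence had a median GC content of 48.8% and the 20 a median level of 351 CPM. The 28 of 30 lower entries with a sequence had a median GC content of 51.1% and the 30 a median level of 10.1 CPM. Over all tested entries the median GC content was 52.4%, over those with at least 100 CPM 47.6% and over those under 10 CPM 55.0%, so the abundant entries had the lower GC content. Among those of the 20 named by smallest p for which a sequence was at hand, miR-146a-5p and miR-146b-5p shared a seed and no other pair did; miR-143-3p, miR-6957-5p and miR-1957b were not compared.

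The 10 most abundant miRNAs had log2 differences between -0.02 and 0.38, none called. miR-181a-5p, the most abundant and a forebrain miRNA, was at 136287, 100936 and 103053 CPM in contra_24h and at 84814, 98100 and 81982 CPM in contra_3h. Its groups did not overlap and its log2 difference was 0.37 ± 0.18 (SE, interval -0.01 to 0.75, edgeR p 0.0554, adjusted p 0.9999). miR-27b-3p was at 24830, 24453 and 24825 CPM in contra_24h and at 14731, 23037 and 20908 CPM in contra_3h (0.38 ± 0.17, log2 difference and SE, edgeR p 0.0388, adjusted p 0.9999). let-7f-5p, the most abundant let-7 member here, was at 82343, 60531 and 60194 CPM in contra_24h and at 54363, 51470 and 52592 CPM in contra_3h (0.35 ± 0.20). Without contra_24h replicate 1 the log2 differences of miR-181a-5p, miR-27b-3p and let-7f-5p were 0.19, 0.21 and 0.19. At the other end, the neuronal miR-9-5p was at 34576, 36962 and 26737 CPM in contra_24h and at 31349, 38687 and 29564 CPM in contra_3h, and miR-128-3p at 63721, 108443 and 76292 CPM against 47515, 97365 and 94934 CPM. For these 2 miRNAs the groups overlapped and the log2 differences were -0.02 ± 0.18 and 0.08 ± 0.19 (SE); their signs turned with the scaling. The interval of miR-9-5p, -0.39 to 0.35, excluded a 2-fold difference.

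Families and clusters were described by their counts beside those of all entries, of which 658 of 1470 lay above 0 with a median of -0.05. No list held a call. All 9 tested let-7 members, which are high in differentiated cells, lay above 0 with a median of 0.25, all 4 miR-181 members with 0.32 and all 5 members of the miR-99, miR-100 and miR-125 families with 0.24; with library totals these medians were 0.01, 0.08 and 0.01. Without contra_24h replicate 1 the let-7 and miR-181 medians were 0.023 and 0.15, and without contra_3h replicate 1 that of the miR-99, miR-100 and miR-125 families was 0.11. The 4 arms of the activity-regulated miR-132 and miR-212 cluster, which CREB induces in neurons, had a median of 0.18 that became -0.06 with library totals and 0.04 without contra_24h replicate 1. miR-132-3p itself was at 7694, 7459 and 7799 CPM in contra_24h and at 5853, 8048 and 7316 CPM in contra_3h. Of 51 tested members of the imprinted Dlk1-Dio3 cluster, 37 lay above 0 with a median of 0.13, which turned to -0.10 with library totals and to -0.02 with TMM factors from abundant entries. Most members of the let-7, miR-181 and miR-125 families are of high level, the class whose median lay above 0 with TMM, and near-identical members can share reads.

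Neuron-enriched miRNAs were split, with 7 of 13 above 0 and a median of 0.01 that was -0.22 with library totals. miR-124-3p was at 4092, 7261 and 6729 CPM in contra_24h and at 3036, 6984 and 5733 CPM in contra_3h, and miR-138-5p at 3105, 7331 and 2722 CPM in contra_24h and at 5820, 7187 and 3051 CPM in contra_3h. Oligodendrocyte miRNAs had 4 of 4 above 0 (median 0.28, or 0.06 with library totals), led by miR-219a-2-3p at 377, 300 and 401 CPM in contra_24h and 304, 277 and 254 CPM in contra_3h. These groups overlapped. Erythrocyte miRNAs had 4 of 5 above 0, while the defining miR-451a overlapped between the groups, at 86.8, 143 and 132 CPM in contra_24h and 72.1, 145 and 132 CPM in contra_3h (log2 difference 0.08 ± 0.26, SE). miR-133a-3p, the 1 tested muscle miRNA, was at 191, 173 and 180 CPM in contra_24h and at 78.2, 156 and 152 CPM in contra_3h (log2 difference 0.57 ± 0.25, SE, edgeR p 0.0311, adjusted p 0.9999).

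The miR-17/92 and related clusters, which promote proliferation, had 7 of 12 below 0 and a median of -0.24. It ranged between -0.16 and -0.0089 with 1 library left out. With the 12 contralateral libraries alone the median was 0.046, but miR-18a-5p, miR-18b-5p and miR-20b-5p were not tested there. The middle member of that fit, miR-19b-3p, was at 0.0022 with all 27 libraries, so these medians are over different members. The abundant miR-92a-3p of these clusters was at 0.41 ± 0.18 (log2, SE, edgeR p 0.0354, adjusted p 0.9999). The epithelial and sensory miR-200 and miR-183 clusters had 5 of 6 below 0 and a median of -0.37, or -0.91 without contra_24h replicate 1 and -0.15 without contra_24h replicate 3; they summed to 437, 492 and 450 CPM in contra_24h and to 549, 606 and 567 CPM in contra_3h, without overlap. In sham cortex that sum was 479, 29721 and 441 CPM, and the SE of miR-182-5p was 1.69 for a log2 difference of -0.20. With the 12 contralateral libraries alone, which leave the sham libraries out, miR-182-5p was at -0.03 ± 0.34 (log2 difference, SE). There the scarce miR-141-3p was at -1.22 ± 0.43, miR-429-3p at -0.77 ± 0.27 and miR-200b-3p at 0.21 ± 0.35. None of these passed adjustment (edgeR adjusted p of at least 0.429). miRNAs linked to the circadian clock in mouse had 2 of 4 tested members on each side of 0. miR-183-5p of that list was at 213, 219 and 201 CPM in contra_24h and at 254, 264 and 230 CPM in contra_3h, without overlap. Its log2 difference was -0.24 ± 0.81 (SE), or -0.20 ± 0.18 with the 12 contralateral libraries alone. The hypoxia marker miR-210-3p was at 60.3, 80.8 and 51.4 CPM in contra_24h and at 57.3, 77.6 and 49.9 CPM in contra_3h (log2 difference 0.06 ± 0.27, SE).

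The remaining lists were described in the same way. Both miR-26 members, all 5 members of the miR-23, miR-27 and miR-24 clusters and all 4 choroid plexus miRNAs lay above 0, with medians of 0.32, 0.27 and 0.33. With library totals these were 0.08, 0.03 and 0.10; without contra_24h replicate 1 the first and second were 0.09 and 0.11, and without contra_3h replicate 3 the third was 0.17. Medians of 0.09 for the 3 miR-29 members, 0.10 for the 6 miR-15 and miR-16 members, 0.18 for both arms of miR-210 and 0.02 for the 6 leukocyte and microglia miRNAs became -0.13, -0.14, -0.06 and -0.20 with library totals. The erythrocyte list had a median of 0.25 (0.02 with library totals and 0.11 without contra_24h replicate 1). The p53-regulated miR-34 list had 4 of 6 above 0 and a median of 0.23, with a sign that turned with library totals and without contra_24h replicate 1 (-0.022). The meningeal list had 3 of 6 above 0 and a median of -0.08, and the clock-linked list a median of -0.04 that was 0.03 with DESeq2 size factors.

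**Figure D4:**
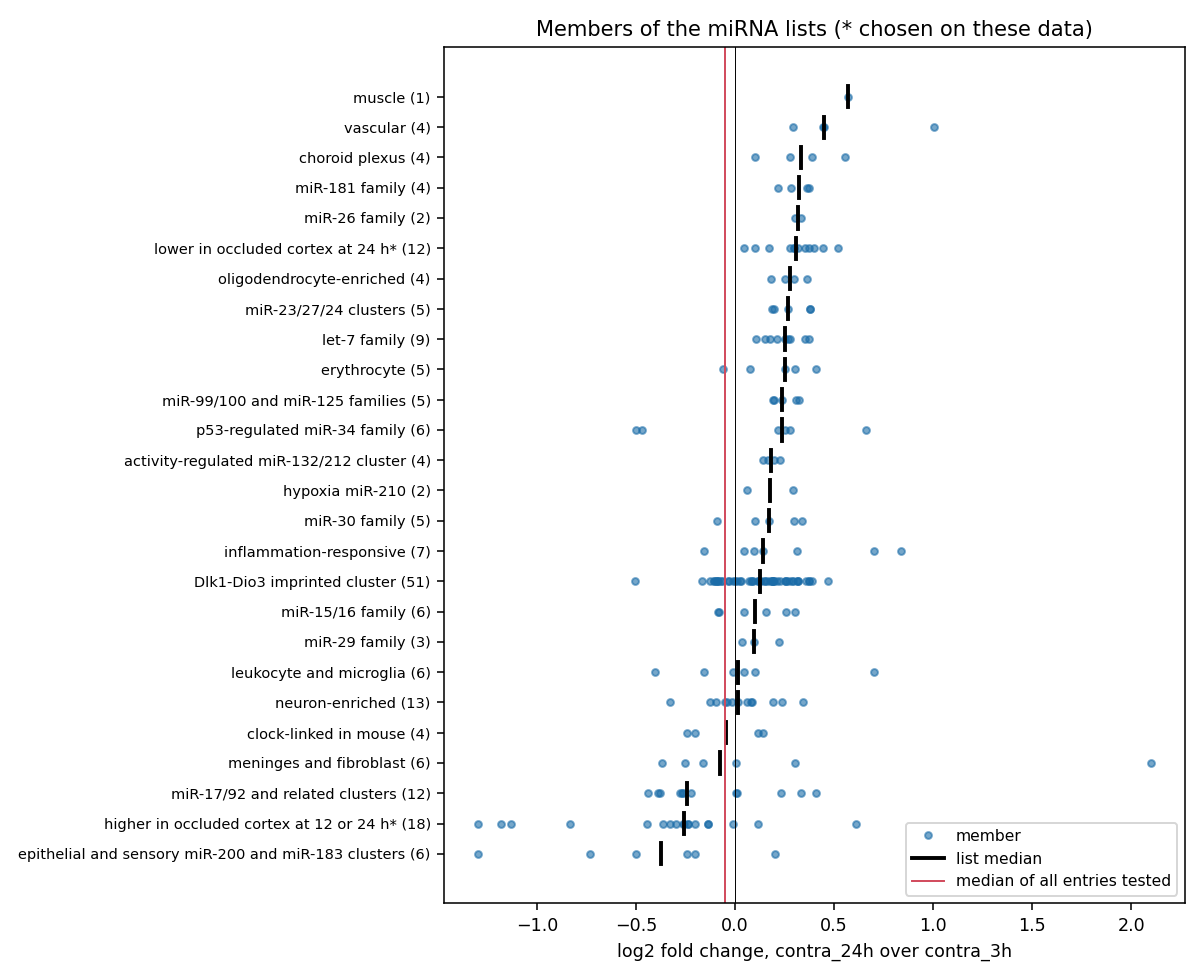
Log2 fold change of contra_24h over contra_3h (x axis) for the tested members of 26 miRNA lists (rows, number tested in parentheses); points are miRNAs, black bars list medians, and the red line is the median of all 1470 entries, -0.05. With TMM scaling the list medians run between -0.37 and 0.57, and with library totals between -0.62 and 0.33; lists with * were chosen on these data.

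The steps in between were tested in the same fit, all against the same 3 contra_3h libraries. No entry passed at 6 h (0%, smallest edgeR adjusted p 0.897, 65 entries or 4.42% at an unadjusted p under 0.05) or at 12 h (0%, smallest adjusted p 0.0766, 149 entries or 10.1%). A joint test of 6, 12 and 24 h against 3 h called 0 entries (0%), with 67 (4.56%) at an unadjusted p under 0.05 and a smallest edgeR adjusted p of 0.764. DESeq2 also called 0 in the joint test, with 47 at an unadjusted p under 0.05. The count at an unadjusted p under 0.05 was thus larger at 12 h than at 24 h, and the difference between these counts was not tested.

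Whether the occluded cortex moved differently over the same hours was asked by the ipsilateral minus the contralateral log2 difference, each 24 h minus 3 h. That difference passed for 5 of 1470 entries (0.34%), all with a positive sign, and 268 (18.2%) had an unadjusted p under 0.05. miR-701-5p was at 12613, 4285 and 1883 CPM in ipsi_24h and at 47.6, 66.3 and 54.0 CPM in ipsi_3h. On the opposite side it was at 21.7, 13.5 and 30.4 CPM in contra_24h and at 10.2, 12.9 and 19.1 CPM in contra_3h, where the groups overlapped although each day's pair was higher at 24 h. The log2 differences were 6.85 in ipsilateral and 0.61 in contralateral cortex, and they differed by 6.24 ± 1.15 (SE, edgeR adjusted p 0.0483). The contralateral interval, -1.14 to 2.37, comes from a fit whose spread is shared with the ipsilateral groups; with the 12 contralateral libraries alone the contralateral difference was 0.69 with an interval of -0.01 to 1.40.

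The other 4 entries that passed were miR-5627-3p, miR-3109-5p, miR-1247-5p and miR-6959-3p, with ipsilateral minus contralateral values of 4.83, 5.70, 3.11 and 3.10 (edgeR adjusted p between 0.0483 and 0.0497). In the opposite cortex miR-5627-3p was at 17.0, 14.3 and 16.3 CPM in contra_24h and at 14.7, 14.2 and 16.3 CPM in contra_3h. miR-1247-5p was at 41.5, 42.1 and 40.9 CPM in contra_24h and at 34.8, 28.4 and 37.2 CPM in contra_3h, without overlap. miR-3109-5p was at 2.83, 2.53 and 5.84 CPM in contra_24h and at 8.6, 9.70 and 7.26 CPM in contra_3h, which is opposite in sign to its ipsilateral log2 difference of 4.40. miR-6959-3p was at 11.3, 6.73 and 7.01 CPM in contra_24h and at 9.83, 14.2 and 16.3 CPM in contra_3h, with overlap. The calls were not stable: leaving out any 1 of the 12 libraries gave 0 calls for 11 of them, and 154 calls, 132 of them positive, without ipsi_24h replicate 3. Without the replicate block 12 entries passed.

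**Figure D5:**
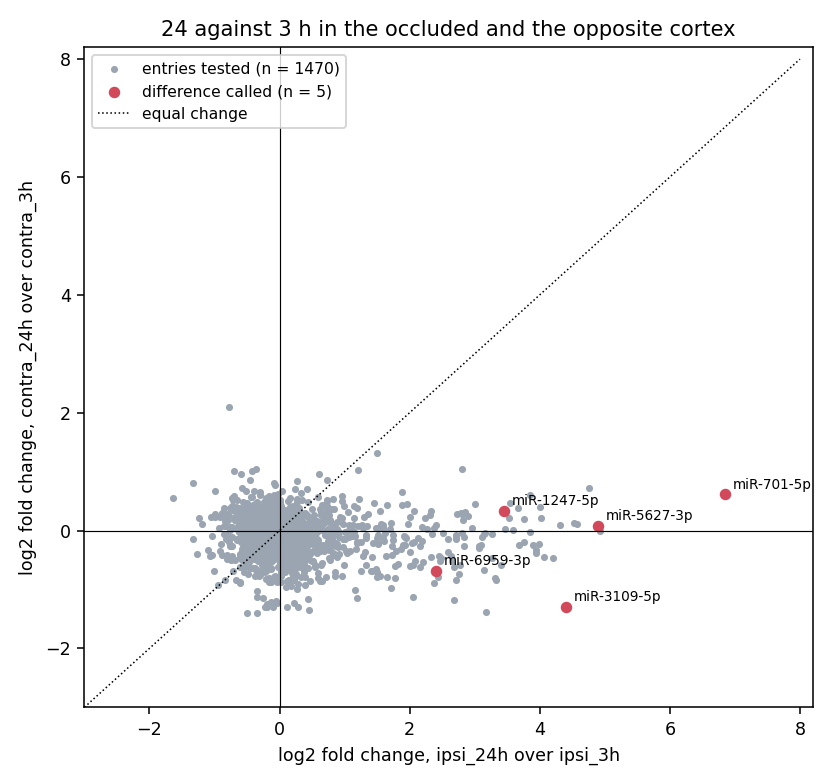
Log2 fold change of ipsi_24h over ipsi_3h (x axis) and of contra_24h over contra_3h (y axis) for the 1470 entries tested; red points are the 5 entries whose 2 changes differed at an adjusted p under 0.05 and the dotted line marks equal change. miR-701-5p lies at 6.85 on the ipsilateral and 0.61 on the contralateral axis.

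Lists made from differences of the occluded cortex in these same data were set beside the opposite side as a description. The 18 miRNAs higher in occluded cortex at 12 or 24 h had a median log2 difference of 3.20 in ipsilateral and -0.26 in contralateral cortex, where 2 of 18 lay above 0 and none was called. Their sum was 322, 274 and 476 CPM in contra_24h and 504, 316 and 427 CPM in contra_3h. Among all tested entries, 327 of 495 under 10 CPM and 436 of 717 between 10 and 100 CPM lay below 0. The medians of these classes were -0.20 and -0.08. The 12 miRNAs lower in occluded cortex at 24 h had a median of -0.62 in ipsilateral and 0.31 in contralateral cortex (0.08 with library totals). All 12 lay above 0 in the opposite cortex with TMM scaling. Their mean levels were at least 100 CPM, a class in which 209 of 258 entries lay above 0. For miR-204-5p, not in that list, the ipsilateral value was -0.73 and the difference between hemispheres -1.28 (edgeR adjusted p 0.0532); for miR-744-5p they were -0.55 and -0.99 (adjusted p 0.0641). Neither passed.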

How the data were processed

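The authors deposited 1 table of raw counts, whole numbers for 1842 mature miRNA entries in 27 libraries, and all of its columns were used. Per the labels' protocols, total RNA from Trizol went into TruSeq small RNA libraries (inserts of 15 to 35 bp, single-end reads of 69 bp). The submitters' processing notes name Novoalign and edgeR; roles, versions, genome build, annotation release and the handling of multiply matching reads are not stated in the sources used here. Counts of near-identical family members are uncertain to that extent.

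The counts were tested with edgeR 4.0.16 (R 4.3.3, limma 3.58.1): filterByExpr kept 1470 entries with 99.9% of the counts, followed by TMM factors, robust quasi-likelihood F tests, 9 group means and the replicate number as a block, with 16 residual degrees of freedom. Benjamini-Hochberg adjustment ran over all 1470 entries, and calls have an adjusted p under 0.05. Intervals are 95% intervals of the log2 fold change; with 3 libraries a group, they and the SE carry the precision. The fits were tested on simulated data.

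The block follows the series' design text, in which replicate sets come from distinct days of surgery. Deviations from the group means of contra_24h and contra_3h correlated at 0.48, 0.44 and 0.43 for equal numbers. The mean for unequal numbers was -0.23. It follows largely from the equal-number values, since deviations within a group cancel, and is no separate result. No source used here says whether libraries of both hemispheres with the same number share an animal. No 2 replicates agreed within sampling noise (chi-square per degree of freedom of at least 16.8).

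The comparison and the 26 miRNA lists (201 members, 194 in the table, 186 tested) were chosen with earlier results of these data known. Named miRNAs are the 10 per direction with the smallest p among entries that average 10 CPM or more and share 1 direction in all 3 pairs, the 10 of highest level, calls of the difference between hemispheres, and list members. Alternatives were the fit without the block, fewer libraries, 3 other scalings, DESeq2 1.42.0, other filters, and leaving out each library. Mature sequences come from RefSeq (GRCm38.p6; 1290 of 1470 tested entries matched). Members miR-219a-5p, miR-486a-5p, miR-486b-5p, miR-126a-5p, miR-133b-3p, miR-199a-3p and miR-199b-3p were not analysed here.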

Additional observations from a re-analysis of the deposited data

Results flagged for a closer look

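The change between 24 h and 3 h differed between the hemispheres, by the test of the difference itself, for 5 entries. The ipsilateral minus contralateral log2 difference was 6.24 for miR-701-5p, 4.83 for miR-5627-3p, 5.70 for miR-3109-5p, 3.11 for miR-1247-5p and 3.10 for miR-6959-3p. All 5 adjusted p-values (edgeR) lay between 0.0483 and 0.0497. The calls were not stable, as their count ranged between 0 and 154 with a library left out.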

How the results depend on the processing

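The count of 0 calls between contra_24h and contra_3h held under every alternative run, left-out libraries included (0 to 0), except for a fit of the 6 libraries alone. That fit, with 2 residual degrees of freedom, called 3 entries, all higher in contra_24h: miR-10b-5p (log2 difference 1.71 ± 0.23, SE, edgeR adjusted p 1.79e-10), miR-143-3p (0.84 ± 0.15, adjusted p 3.2e-05) and miR-146b-5p (0.83 ± 0.18, adjusted p 0.00113). Their dispersions there were 0.0325, 0.0223 and 0.0267, against 0.617, 0.112 and 0.0614 with all 27 libraries. The median prior degrees of freedom of the 6-library fit were infinite. The spread of a typical entry was thus taken from the pool of entries, not from its own replicates. With the 12 contralateral libraries alone, the log2 differences were 2.12 ± 1.18, 0.99 ± 0.46 and 0.87 ± 0.20 (SE). None passed there (edgeR adjusted p 0.727, 0.65 and 0.274). Without the replicate block the count was 0, with 31 entries at an unadjusted p under 0.05; that number was 105 with contralateral and sham libraries. The joint test stayed at 0, with its smallest adjusted p (0.0555, edgeR) without contra_12h replicate 1.

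The 5 calls of the difference between hemispheres became 12 with no replicate block, 13 with DESeq2 size factors, 28 with library totals, 0 with TMM factors from abundant entries (smallest edgeR adjusted p 0.0517), 94 with DESeq2 (81 positive), 60 with entries of at least 10 CPM, 6 with no filter, and 0 to 154 with a library left out. The cause was not tested.

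Fitted log2 values near 0 turned sign. With library totals these were miR-127-3p (-0.033), miR-128-3p (-0.14), miR-22-3p (-0.021) and miR-434-3p (-0.020). miR-128-3p was at -0.074 with TMM factors from abundant entries and at -0.025 without contra_3h replicate 1. With a library left out, miR-434-3p ranged between -0.072 and 0.52 and was below 0 without contra_24h replicate 2 or contra_3h replicate 3. miR-9-5p was at 0.015 with the 12 contralateral libraries, 0.032 with contralateral and sham libraries and 0.058 with DESeq2 size factors or DESeq2, and ranged between -0.13 and 0.057 with a library left out. Over all alternatives, 526 values of single miRNAs kept their direction and their side of the threshold, 15 turned sign, 3 gained a call and 60 lost one. The 3 gains were miR-10b-5p, miR-143-3p and miR-146b-5p in the fit of the 6 libraries alone. All 60 losses were among the 5 miRNAs called between hemispheres. Intervals were widest for entries under 10 CPM.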
